A study of Homo sapiens and Mus musculus with 24 samples.

Results

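Long noncoding RNAs (lncRNAs) described in neural tissue were followed in mouse neuronal cells through UPA-seq, in which RNA is sequenced from the aqueous phase after UV irradiation of the cells and phenol-chloroform extraction. The set comprised 7 genes, Rmst, Peg13, Pantr1, Sox2ot, Dlx6os1, Snhg11 and C130071C03Rik, of the 53715 genes in the mouse count files. They are listed by name with no threshold on their counts, although earlier results of these data were known when the list was made, and each Ensembl identifier was matched to its symbol and class through GENCODE. A further lncRNA, Miat, was left out of the set.

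The 12 mouse samples fell into 4 groups of 3. Neuro2a is a mouse neuroblastoma line. HippCulture is a primary culture of hippocampal neurons from E16.5 mouse embryos, treated with AraC against dividing glia, and its animals were C57/BL6NCr mice according to the methods of the study. Cells of each kind were either irradiated with 120 mJ/cm2 of UV (UVp) or left nonirradiated (UVm, sequenced as conventional RNA-seq), and all 4 groups were extracted with TRIzol including a heating step and depleted of ribosomal RNA. No group carried a genetic change that the labels name, and Neuro2a, as a single tumour line, stands for neuroblastoma cells only as far as that line does. The labels number the 3 replicates of a group without saying what separates them, and the study describes its sequencing replicates as biological. Whether they came from separate cultures is not given in the sources used here, so the p-values measure the spread between these samples.

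UV light joins RNA covalently to proteins in direct contact, and an RNA held by crosslinked protein moves to the interphase and is lost from the aqueous phase. The comparison of UPA-seq with RNA-seq reads asks which RNAs are recovered less well after irradiation, relative to the other RNAs of the same library. Bonds left by UV on an RNA can also hinder reverse transcription, which lowers its reads without a loss of recovery. Nuclear lncRNAs of the brain act in several ways, including by binding transcription factors, by the act of transcription near developmental genes, and as precursors of microRNAs and small nucleolar RNAs (snoRNAs).

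The members differ in position and in what lies inside them (all coordinates mm10). Rmst, a lncRNA that binds the transcription factor Sox2 during neuronal differentiation, spans chr10:92071037-92165170 on the minus strand with 7423 exonic bases (ENSMUSG00000112117.1). Sox2ot, whose intron holds the Sox2 gene, spans chr3:34104270-34682619 on the plus strand with 11594 exonic bases (ENSMUSG00000105265.4). Dlx6os1, also known as Evf2 and made from an enhancer of the Dlx5 and Dlx6 genes of interneuron development, spans chr6:6820189-6871592 on the minus strand with 5173 exonic bases (ENSMUSG00000090063.6).

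Pantr1 lies head to head with Pou3f3, a POU-domain factor of the cortex, at chr1:42590782-42694842 on the minus strand, with 4458 exonic bases (ENSMUSG00000060424.14). Peg13, an imprinted gene expressed from the paternal allele, is 1 unspliced exon of 4725 bases inside Trappc9 on the same, minus, strand at chr15:72805600-72810324 (ENSMUSG00000106847.1). Snhg11, a snoRNA host gene, covers chr2:158375638-158386145 on the plus strand with 8521 exonic bases (ENSMUSG00000044349.15), and the annotation puts this 1 member in the protein-coding class. C130071C03Rik, a host of miR-9, covers chr13:83721381-83884194 on the plus strand with 5664 exonic bases (ENSMUSG00000050334.12).

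Of the 7 members, 3 hold microRNA genes on their own strand, and the mature forms are given here to show which microRNAs lie within these members. The sequences were read from the GRCm38 genome (the mm10 build) at RefSeq coordinates, with the seed (bases 2 to 8) in capitals. The 8 mature arms of these 4 microRNA genes carried 8 different seeds. The arms of Gm51268 (miR-9b), annotated on the opposite strand over Mir9-2, were not counted among them. The first pair comes from Mir9-2 in an exon of C130071C03Rik.
mmu-miR-9-5p: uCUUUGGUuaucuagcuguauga
mmu-miR-9-3p: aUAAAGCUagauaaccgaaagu
mmu-miR-135a-5p (Mir135a-2, intron of Rmst): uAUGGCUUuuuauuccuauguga
mmu-miR-1251-5p (Mir1251, intron of Rmst): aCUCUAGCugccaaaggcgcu
mmu-miR-1897-5p (Mir1897, exon of Sox2ot): cUUUGGAUggagaaagaggggg

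Snhg11 holds 2 annotated snoRNAs of 133 bases each, 1 inside an exon (Gm25187, chr2:158378222-158378354) and 1 in an intron (Gm25129, chr2:158379534-158379666), both on the plus strand. They are shown because the class of Snhg11 as a host gene rests on them. Both end in ACA (capitals), the tail found on box H/ACA snoRNAs, and compared base by base without gaps they were identical at 56 of 133 positions.
Gm25187: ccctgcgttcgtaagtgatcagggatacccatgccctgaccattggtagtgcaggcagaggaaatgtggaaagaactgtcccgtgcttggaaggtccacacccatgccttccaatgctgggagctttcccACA
Gm25129: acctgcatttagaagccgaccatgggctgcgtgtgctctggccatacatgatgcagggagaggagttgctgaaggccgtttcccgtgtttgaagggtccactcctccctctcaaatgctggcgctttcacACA

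Each mouse sample held between 6910907 and 9163323 counts, and levels are given as counts scaled to a common library size (CPM) scaled by TMM, which corrects for a few abundant RNAs taking a large share of a library. The 10 genes with the most counts held 21.5% to 32.4% of a nonirradiated library and 40.3% to 52.4% of an irradiated one. The highest of these shares, 52.4%, was in HippCulture UVp replicate 2. Neuro2a expressed the sympathetic neuroblastoma markers Hand2 (mean 85.1 CPM in nonirradiated cells) and Phox2a (20.4 CPM), which were at 0.0299 and 0.124 CPM in HippCulture. HippCulture expressed all 6 pan-neuronal and all 5 glutamatergic markers looked at. It also expressed markers of astrocytes (Slc1a2 at 421 CPM, Slc1a3 at 353 CPM) and of the oligodendrocyte lineage (Olig1 at 33.8 CPM). Among microglial markers only Csf1r passed 0.5 CPM there (4.68 CPM), and the summed level of the 4 endothelial or fibroblast markers was 4.76 to 5.63 CPM.

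In nonirradiated HippCulture all 7 members were measured well above the level of 3 counts (0.269 to 0.285 CPM there). Divided by exonic length, as CPM per kilobase of exon (RPKM), Snhg11 was the highest at 13.1 ± 1.73 (SD, n = 3). C130071C03Rik followed at 12.5 ± 1.6 and Peg13 at 12 ± 1.03. The libraries of Snhg11 overlapped with those of C130071C03Rik, and those of C130071C03Rik with those of Peg13, so the ranking of these 3 was not resolved.

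A lower tier held Dlx6os1 at 3.35 ± 0.771 RPKM and Pantr1 at 3.02 ± 0.274 RPKM, whose values overlapped with each other but not with Peg13 above or Sox2ot below. Sox2ot at 1.02 ± 0.181 RPKM and Rmst at 0.952 ± 0.122 RPKM were the lowest and overlapped as well. Among the 2396 other lncRNAs tested in HippCulture, the 3 highest members stood at percentiles 94.4 to 94.7 of level per length. Dlx6os1 and Pantr1 stood at percentiles 78 and 76.1, and Sox2ot and Rmst near the middle at 47.1 and 44.9.

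Neuro2a shared only Peg13 at a level that could be tested. Nonirradiated Neuro2a had 13.9, 19.2 and 19.2 CPM of Peg13, against 58, 51.1 and 60.5 CPM in nonirradiated HippCulture. All 3 Neuro2a libraries were below all 3 HippCulture libraries. The log2 difference was -1.78 ± 0.11 (SE), with an adjusted p of 1.96e-10 in edgeR's quasi-likelihood test, in a comparison where 41.3% of 19367 genes were called lower in Neuro2a and 39.3% higher. Cell type, culture and preparation cannot be told apart in this comparison.

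The other 6 members were under the filter of a mean of 0.5 CPM in nonirradiated Neuro2a. Snhg11 had 5, 3 and 1 counts there against 1429, 1144 and 1057 counts in HippCulture. From summed counts and TMM library sizes this is a ratio of 425 (95% exact interval 223 to 929, counting error only). C130071C03Rik had 0, 0 and 1 counts against 841, 638 and 824, a ratio of 2424 with an interval of 435 to 95780. For these 2 members the Neuro2a signal amounted to single reads.

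Dlx6os1 had 0, 0 and 2 counts in Neuro2a against 235, 138 and 190 in HippCulture, a ratio of 296 (81.6 to 2452). Sox2ot had 1, 3 and 3 counts against 146, 99 and 139, a ratio of 57.7 (27.8 to 145). Sox2 itself, the coding gene inside Sox2ot, had no count in any of the 6 Neuro2a libraries and a mean of 23.3 CPM in nonirradiated HippCulture. Pantr1 had 3, 2 and 5 counts against 163, 128 and 145, a ratio of 45.9 (24.7 to 96.4), and Rmst 1, 6 and 2 counts against 71, 85 and 72, a ratio of 26.7 (13.8 to 59.1). These 6 members passed the filter of this comparison through HippCulture alone, so their fitted differences are not used.

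**Figure D1:**
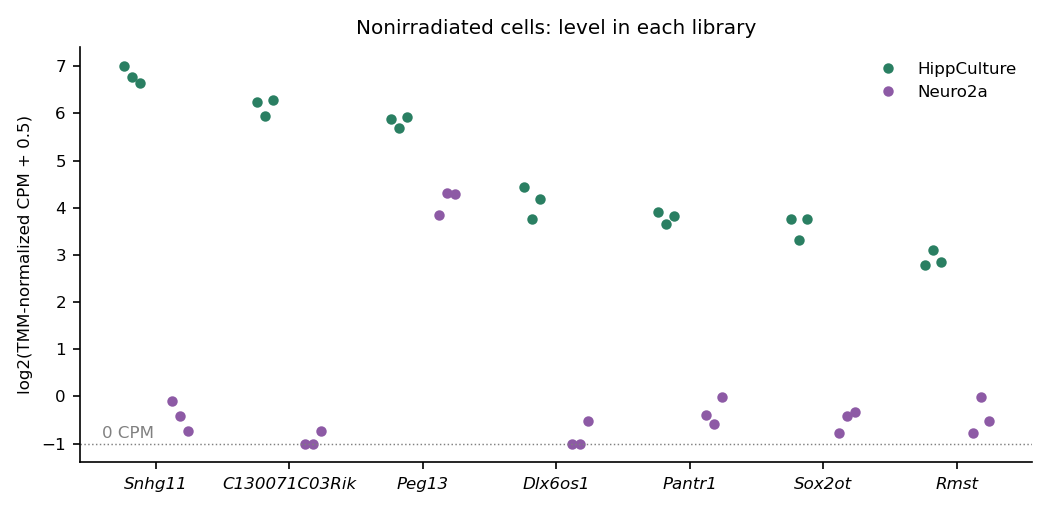
Level of each member in the 3 nonirradiated libraries of HippCulture (green) and Neuro2a (purple), as log2 of TMM-normalized CPM plus 0.5, with the dotted line at 0 CPM. Peg13 is the 1 member well above the line in both cell types, and its Neuro2a libraries (13.9 to 19.2 CPM) lie below its HippCulture libraries (51.1 to 60.5 CPM).

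Irradiation moved the members of HippCulture in different directions. All 7 passed the filter there, 3 were called lower after UV (Dlx6os1, Peg13 and, near the threshold, Snhg11), 1 was called higher (Pantr1) and 3 were not called (Sox2ot, Rmst and C130071C03Rik). Over all 18488 genes tested 25.9% were called lower and 26.1% higher. The median log2 change of the members was -0.25, beside -0.04 over all genes and -0.21 over 2396 other lncRNAs, of which 20.7% were called lower and 12.5% higher. In bulk RNA a lower value can come from fewer cells of a type, from less RNA per cell, from less RNA recovered or from poorer reverse transcription. The methods of the study describe irradiation on ice and give no culture period between it and extraction. These sources cannot be told apart from the counts and were not tested.

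These values are relative to the other RNAs of a library. With library size alone as the scale, the median of all genes tested in HippCulture shifted from -0.04 to -0.59. Of the genes called, 87.4% were then lower, against 49.8% with TMM. Each scaling multiplies a whole library by 1 factor, so it shifts all genes by about the same amount. The values of the members against the median of all genes therefore hardly depend on it. They stayed within 0.01 on the log2 scale, which follows from the calculation and is no test of the members. Against that median, Pantr1 was at 1.27 to 1.28 and Dlx6os1 at -1.14 to -1.13 under TMM, size factors and library size.

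**Figure D2:**
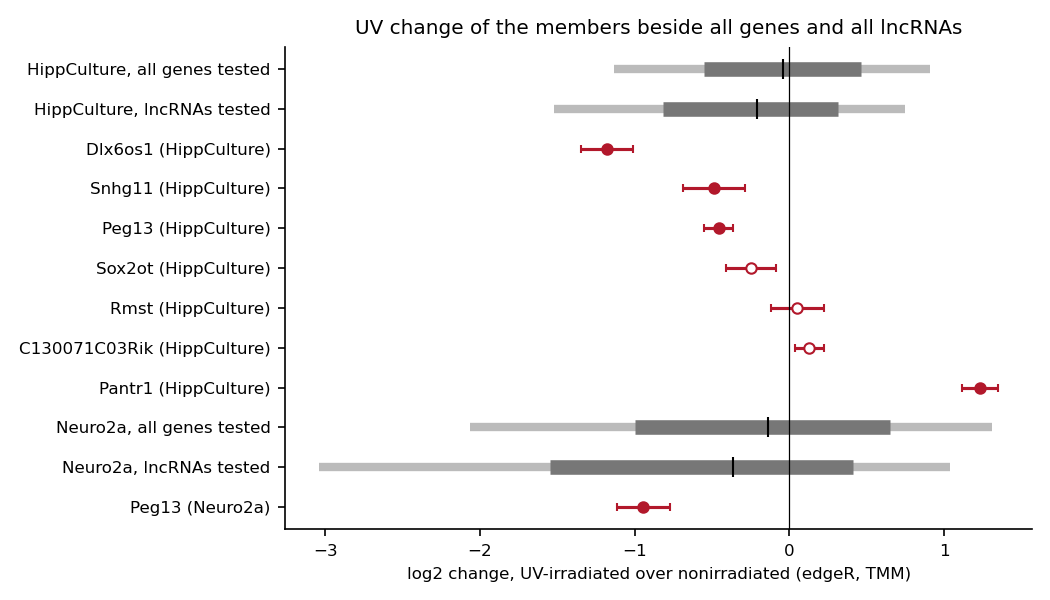
Log2 change of each member after UV (points, with SE bars; filled where the adjusted p was under 0.05) beside the distribution over all genes and over all other lncRNAs tested (dark bars, middle 50% of genes; light bars, middle 80%; ticks, medians). Dlx6os1 and Pantr1 lie on opposite sides at -1.18 and 1.23, and the other members lie between -0.49 and 0.13 in HippCulture.

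Pantr1 was the member that rose. Its nonirradiated HippCulture libraries had 14.6, 12.2 and 13.6 CPM and the irradiated ones 29.2, 34.4 and 33.3 CPM. Every irradiated library was above every nonirradiated one. How many of all genes tested had groups apart in this way was not counted. This limit holds for every gene whose groups are given as apart, in either cell type. The log2 change was 1.23 ± 0.12 (SE), a 2.35-fold rise with an adjusted p of 2.63e-08 in edgeR, and the exact two-sided permutation test gave p = 0.1, the smallest that 3 against 3 samples allow. This change was higher than that of 96% of all genes and 97.4% of other lncRNAs tested, and it remained a call under every alternative tried (0.68 to 1.33).

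Pou3f3, which starts 0.926 kb from Pantr1 on the opposite strand, had a mean of 75.6 CPM before and 69.5 CPM after irradiation, and its log2 change of -0.14 ± 0.08 was not called (adjusted p = 0.146). The companion lncRNA of the same locus, Pantr2, was at 1.46 and 0.831 CPM, with a log2 change of -0.85 ± 0.39 that was not called either (adjusted p = 0.0769). The groups of Pou3f3 and of Pantr2 also did not overlap, both lower after UV, each with an exact permutation p of 0.1. All 5 neural progenitor markers looked at were called higher in the same libraries, where 26.1% of all genes were called higher and 25.9% lower. Vim rose by 0.76, Pax6 by 0.68, Nes by 0.38 and Sox2 by 0.27 on the log2 scale, and Hes5 went from 10.9 to 31.6 CPM. The summed level of the 5 went from 178 to 212 CPM up to 309 to 329 CPM, of which Vim alone had means of 112 and 192 CPM. In Neuro2a 4 of the 5 were tested and 2 were called higher, beside 28.9% of all genes. There Vim rose by 1.28 and Hes5, from a mean of only 0.668 CPM, by 1.58 on the log2 scale, and Nes and Pax6 were not called. Glial markers moved in HippCulture as well. Of 6 astrocyte markers 3 rose, among them Gfap by 1.03 and Slc1a3 by 0.25 on the log2 scale, and Slc1a2 fell by 0.51. Of 6 markers of the oligodendrocyte lineage 3 rose, among them Olig1 by 0.74 and Olig2 by 0.64, and Mbp fell by 0.44. The summed astrocyte level went from 884 to 928 CPM to 923 to 964 CPM, and that of the oligodendrocyte lineage from 77.7 to 87.3 CPM up to 101 to 130 CPM. The part of any of these cells in the Pantr1 value was not tested.

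Dlx6os1 fell the most among the members. It was at 21.1, 13.1 and 17.8 CPM in nonirradiated and at 8.29, 7.78 and 7.4 CPM in irradiated HippCulture. The groups did not overlap, and the irradiated libraries lay closer together than the nonirradiated ones. The log2 change was -1.18 ± 0.17 (SE), 2.26-fold lower, with an adjusted p of 6.65e-06 in edgeR and an exact permutation p of 0.1. It lay at percentile 9.37 of all genes tested and at percentile 16.53 of other lncRNAs.

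The homeobox gene Dlx5 lies 6.21 kb from Dlx6os1, and Dlx6 lies inside the Dlx6os1 span on the opposite strand. Dlx5 and Dlx6 were near the detection limit, at 0.399 and 1.38 CPM before irradiation. Their log2 changes were 0.78 ± 0.63 for Dlx5 (adjusted p = 0.309) and -0.71 ± 0.47 for Dlx6 (adjusted p = 0.218), neither called. Of the 6 markers of GABAergic neurons, the cells in which Dlx6os1 is known, 2 fell and none rose. Falls were not confined to these markers. Of the 5 glutamatergic markers 2 fell (Slc17a6 by 0.58, Neurod2 by 0.26) and 1 rose (Slc17a7 by 0.54). Of the 6 pan-neuronal markers 3 fell (Map2 by 0.80, Syt1 by 0.79, Snap25 by 0.59) and 2 rose (Stmn2 by 0.54, Rbfox3 by 0.30). Among all genes tested 25.9% were called lower and 26.1% higher. Gad1, a glutamate decarboxylase, fell by 0.91 and Gad2 by 0.89 on the log2 scale, while Slc32a1, the vesicular GABA transporter, was at 0.21 ± 0.13 (adjusted p = 0.176) and Dlx1 at -0.03 ± 0.15 (adjusted p = 0.896). The summed level of the 6 GABAergic markers was 153 to 177 CPM before and 110 to 124 CPM after irradiation. The part of this in the Dlx6os1 value was not tested.

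Peg13 fell in both cell types. In HippCulture it was at 58, 51.1 and 60.5 CPM before and 40.2, 43.3 and 42.2 CPM after irradiation, 2 groups that did not overlap. The log2 change was -0.46 ± 0.09 (SE), 1.37-fold lower, with an adjusted p of 0.000263 in edgeR and an exact permutation p of 0.1. At percentile 38.5 of other lncRNAs, this fall was close to the middle of their distribution.

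In Neuro2a Peg13 was at 13.9, 19.2 and 19.2 CPM before and 7.89, 8.56 and 8.71 CPM after irradiation, again without overlap. The log2 change was -0.94 ± 0.17 (SE), 1.92-fold lower, with an adjusted p of 0.000277 in edgeR and an exact permutation p of 0.1. Over 17425 genes tested in Neuro2a, 33% were called lower and 28.9% higher, and the median log2 change was -0.14 over all genes and -0.37 over 2313 other lncRNAs. Peg13 stood at percentile 26.4 of all genes there and at percentile 29.2 of all genes in HippCulture.

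Whether the fall of Peg13 differed between the cell types depended on the fit. The interaction of UV and cell type was -0.49 ± 0.19 (SE, Neuro2a minus HippCulture) with an adjusted p of 0.0658 in edgeR. Across 14973 genes 16.1% were called with a lower UV change in Neuro2a and 8.41% with a higher one. Of the genes called, 65.7% were lower in Neuro2a with TMM, 51.8% with DESeq2's size factors and 99.2% with library size alone. Without Neuro2a UVm replicate 1, the library with the least Peg13 of its group, the difference was -0.63 with an adjusted p of 0.0109. It was also called with no filter on low counts (-0.58, adjusted p = 0.0446) and with library size alone (-1.13, adjusted p = 0.000104), and not with DESeq2 (-0.40, adjusted p = 0.188).

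Trappc9, whose intron holds Peg13, differed little between the groups. It was at 63.2 CPM before and 70.9 CPM after irradiation in HippCulture (log2 change 0.14 ± 0.08, adjusted p = 0.176) and at 59.6 and 54.1 CPM in Neuro2a (-0.03 ± 0.10, adjusted p = 0.801). The HippCulture groups of Trappc9 also did not overlap, higher after UV, with an exact permutation p of 0.1. Kcnk9, a potassium channel gene of the same imprinted cluster 259 kb away, fell by 1.25 ± 0.11 in HippCulture (adjusted p = 6.79e-09). The 3 genes whose level was most like that of Peg13 across the 12 libraries were Lmbr1 (Pearson r = 0.998), Traf3 (r = 0.996) and Gprasp1 (r = 0.996), among 17887 genes, in a comparison where the libraries form 2 cell types and share their irradiation.

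**Figure D3:**
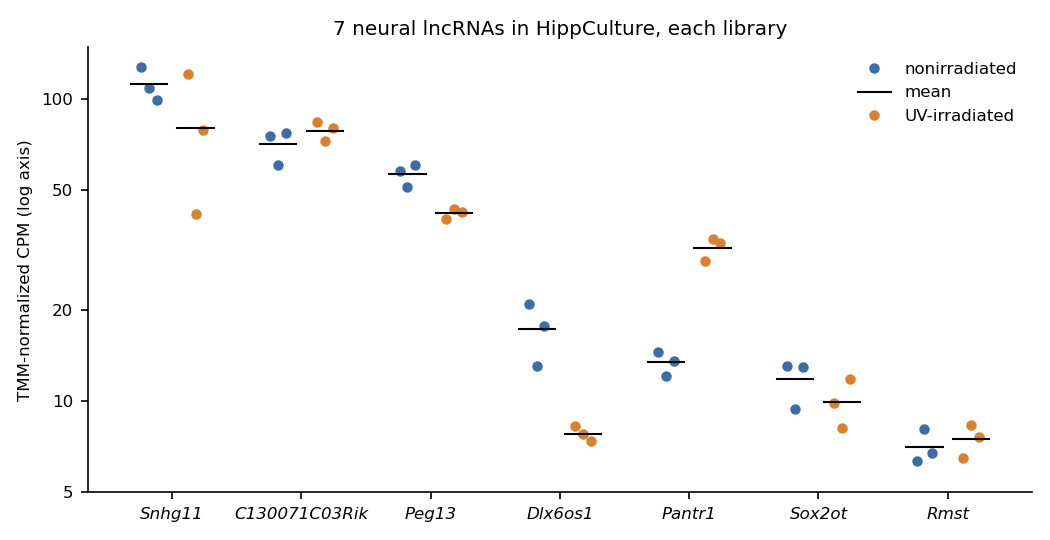
TMM-normalized CPM (log axis) of each member in every HippCulture library, nonirradiated (blue) and irradiated (orange), with group means as bars. The groups are apart for Peg13, Dlx6os1 and Pantr1 and overlap for the other 4 members, and the irradiated Snhg11 libraries spread from 41.6 to 121 CPM. The share of all genes tested with groups apart was not counted.

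Snhg11 had the widest spread of the members. Its nonirradiated libraries were at 128, 109 and 99.1 CPM and the irradiated ones at 121, 41.6 and 79 CPM, so that 1 irradiated library lay among the nonirradiated ones. The log2 change was -0.49 ± 0.20 (SE) with an adjusted p of 0.0497 in edgeR, and the exact permutation p was 0.3. DESeq2 gave -0.52 with an adjusted p of 0.338. Without HippCulture UVp replicate 2, the library with the lowest value, the log2 change was -0.20 (adjusted p = 0.23), and without UVp replicate 1 it was -0.88 (adjusted p = 0.000333). Replicate 2 was also the library with the highest share of counts in its 10 leading genes (52.4%), whose part in this value was not tested. The call was also lost without UVm replicate 1 (adjusted p = 0.168), UVm replicate 2 (0.0529) or UVp replicate 3 (0.13). Of the 8 alternatives that kept all libraries, 7 kept the call and DESeq2 did not, over log2 changes of -1.02 to -0.49. Among those 7, the replicate block gave -0.55 with an adjusted p of 0.000766 in edgeR.

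The snoRNA entries printed above held few reads. Gm25187, all of whose 133 bases lie in an exon of Snhg11, had 7, 4 and 4 counts before and 0, 1 and 0 counts after irradiation, and these reads cannot be told apart from those of Snhg11. Gm25129, in the intron, had 3, 2 and 1 counts before and 0, 4 and 0 counts after, which is under the filter. The libraries were not made for small RNAs, so these counts are not levels of mature snoRNAs. Ralgapb, 23.7 kb downstream of Snhg11, fell by 0.51 ± 0.09 on the log2 scale (adjusted p = 4.05e-05).

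Sox2ot, Rmst and C130071C03Rik were not called in HippCulture. Sox2ot was at 13.1, 9.42 and 13 CPM before and 9.92, 8.16 and 11.9 CPM after irradiation, with overlap, and its log2 change was -0.25 ± 0.16 (adjusted p = 0.216, exact permutation p = 0.3). Sox2, inside its intron, was at 23.3 ± 1.77 CPM before and 28.6 ± 2.71 CPM after (SD, n = 3), a log2 rise of 0.27 ± 0.11 with an adjusted p of 0.049, and its groups overlapped. Atp11b, 1070 kb downstream, fell by 0.71 ± 0.12 (adjusted p = 3.26e-05). The Sox2ot and Sox2 values had opposite signs, and only that of Sox2 was called.

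Rmst was at 6.36, 8.09 and 6.75 CPM before and 6.52, 8.35 and 7.64 CPM after irradiation, 2 sets that almost coincide. Its log2 change was 0.05 ± 0.17 (adjusted p = 0.822, exact permutation p = 0.8), with a 95% interval of -0.28 to 0.39 from the standard error. Of the exonic bases of Rmst 38.8% are shared with other annotated genes, 1955 of them with Gm26700 on the opposite strand, so reads there are counted for both genes. Gm26700, with 1955 of its 1957 bases in Rmst exons, had 16, 13 and 12 counts before and 6, 4 and 9 after irradiation. Its log2 change was -0.50 ± 0.39 (adjusted p = 0.293). The groups of Gm26700 did not overlap, lower after UV, with an exact permutation p of 0.1. Nearly all of these reads cannot be told apart from those of Rmst. Nedd1, 520 kb away, was at 3.33 and 2.42 CPM (log2 change -0.48 ± 0.26, adjusted p = 0.127).

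Small annotated conserved regions of Rmst are counted as genes of their own. Of these, Gm27419, with 108 of its 109 bases in Rmst exons, had 7, 8 and 2 counts before and 5, 7 and 16 after irradiation (log2 change 1.30 ± 0.51, adjusted p = 0.0394), its groups overlapping. Gm27608, Gm27753, Gm27582 and Gm27366 had 13 to 25 counts summed over the nonirradiated libraries and log2 changes of -0.24 to 1.20, none of them called. These entries share their reads with Rmst and add no separate measurement of it. The 2 microRNA genes in its introns were almost without reads, Mir135a-2 with 2 counts and Mir1251 with 1 over the nonirradiated HippCulture libraries and none in the irradiated ones.

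C130071C03Rik was at 75.4, 60.7 and 77.3 CPM before and 83.8, 72.5 and 80 CPM after irradiation, with overlap. The log2 change was 0.13 ± 0.09 (adjusted p = 0.269, exact permutation p = 0.4), with a 95% interval of -0.06 to 0.31. Gm33366, on the opposite strand and sharing 1327 bases with it, was at 23.4 and 27.2 CPM (log2 change 0.19 ± 0.11, adjusted p = 0.153). The groups of Gm33366 did not overlap, higher after UV, with an exact permutation p of 0.1. Without strand in the counting, reads of this pair cannot be told apart. Mir9-2, all within an exon of the host, had 34 counts before and 14 after irradiation (log2 change -0.67 ± 0.52, adjusted p = 0.289). These reads are also counted for the host.

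Genes around C130071C03Rik behaved otherwise. Mef2c, a transcription factor of neuronal maturation 54.3 kb away, went from 136 to 62.4 CPM and fell by 1.15 ± 0.08 on the log2 scale (adjusted p = 9.72e-10). Tmem161b, 338 kb to the other side, fell by 0.36 ± 0.13 (adjusted p = 0.0221). Gm26803, a lincRNA within the span of C130071C03Rik that shares no exonic base with it, went from 5.71 to 2.43 CPM and fell by 1.15 ± 0.28 (adjusted p = 0.0017). The intronic pseudogene Gm6411 had 39 counts before and 13 after (log2 change -0.96 ± 0.43, adjusted p = 0.0685).

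Sox2ot spans 14 other annotated genes, 5 of which reached 0.5 CPM in a group, Sox2 among them. Of those that share no exonic base with it, Gm42692 fell by 1.97 ± 0.73 from 31 to 5 summed counts (adjusted p = 0.0292), and Gm20515 had 33 and 9 summed counts (-1.23 ± 0.56, adjusted p = 0.0688). Of the 4 entries that share its exons, the 2 that reached 0.5 CPM in a group were not called, RF01953 at -0.10 ± 0.42 (adjusted p = 0.86) and Mir1897 at 0.68 ± 0.59 (adjusted p = 0.35). In Dlx6os1, Gm27699 shared all of its 180 exonic bases and had 36 counts before and 6 after irradiation (-1.92 ± 0.59, adjusted p = 0.00974). Gm27905 shared all of its 207 bases (-1.35 ± 0.64, adjusted p = 0.0851). All bases of RF01953 and Mir1897 lie in Sox2ot exons in the same way. The reads of such entries are also counted for the member, and they add no separate measurement. The spans held 39 other annotated genes in all, 18 of which reached 0.5 CPM in a group.

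**Figure D4:**
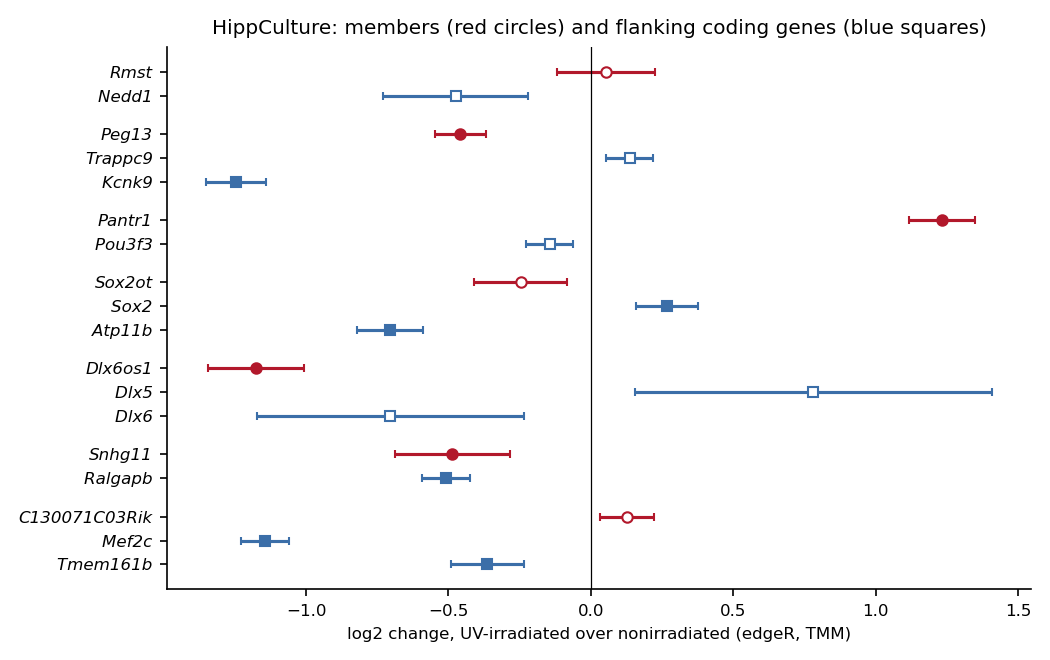
Log2 change after UV in HippCulture for each member (red circles) and the coding genes listed with it (blue squares), with SE bars and filled symbols where the adjusted p was under 0.05. Pantr1 (1.23) and Pou3f3 (-0.14), and Peg13 (-0.46) and Trappc9 (0.14), are pairs in which the member was called and the coding gene was not.

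Taking the coding genes near the members as a list, 5 of 11 were called lower and 1 higher in HippCulture, where 25.9% of all genes were called lower and 26.1% higher, and their median log2 change was -0.48 beside -0.04 over all genes. In Neuro2a 6 of the 11 passed the filter and 5 were called lower, where 33% of all genes were, with a median of -1.32 beside -0.14. There Nedd1 fell by 0.84, Atp11b fell by 1.31, Tmem161b fell by 1.32 and Ralgapb fell by 1.42 on the log2 scale. Kcnk9 fell by 2.53 from a mean of only 0.507 CPM (adjusted p = 0.0479).

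A list of 14 other lncRNAs described in neural tissue gave a background for the members, and 13 of them were matched by name. In HippCulture 11 were tested, 7 were called lower and 1 higher, beside the same 25.9% and 26.1% of all genes, with a median log2 change of -0.52. Those that fell were the imprinted Kcnq1ot1 (by 1.47), Meg3 (1.20), Snhg14 (1.12), Rian (0.55) and Mirg (0.52), and the microRNA hosts Mir99ahg (0.46) and Mir124a-1hg (0.28). Mir9-3hg, a host of the same microRNA as C130071C03Rik, rose by 0.41 ± 0.14 (adjusted p = 0.0222). Dlx1as (-0.29, adjusted p = 0.253), Tunar (-0.16, adjusted p = 0.443) and Pantr2 were not called.

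In Neuro2a 9 of these lncRNAs were tested and 2 were called lower, beside 33% of all genes. Kcnq1ot1 fell by 3.09 and Snhg14 fell by 2.79 on the log2 scale. The remaining 7, Meg3, Rian, Mirg, Mir124a-1hg, Mir99ahg, Dlx1as and Six3os1, had log2 changes of -1.27 to 0.45 at mean levels of 0.71 to 13.9 CPM and were not called. Otx2os1 was under the filter in both cell types.

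The members that were nearly absent from Neuro2a were below the filter on low values there. After irradiation Pantr1 had 0, 1 and 1 counts and Snhg11 1, 1 and 0, and the 4 others had none in any library. A count of 0 over the 3 irradiated libraries allows up to 0.204 CPM. Before irradiation Rmst averaged 0.259 CPM and Sox2ot 0.209 CPM, just above that limit. For both, the irradiated libraries had no count and the nonirradiated ones 1 to 6 (Rmst) or 1 to 3 (Sox2ot). The exact two-sided permutation test gave p = 0.1, the lowest that 3 against 3 samples can reach. A count of 0 in a single irradiated library allows up to 0.56 to 0.64 CPM. That is above every nonirradiated value of both (at most 0.495 and 0.293 CPM), so these libraries cannot show whether either fell. Dlx6os1 and C130071C03Rik, with 2 counts and 1 count in all, were under the limit in both groups.

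Sequence was not used to choose the members, and long exons were common to all 7. Their exon unions, 4458 to 11594 bases, were longer than those of 89.1% to 99.4% of the 2396 other lncRNAs tested. Uracil made up 25.2% (Pantr1) to 30.9% (Dlx6os1) of their bases, beside a median of 25.1% over the other lncRNAs. Rmst was at 30.6% and C130071C03Rik at 30.2%. Runs of 5 uracils (TTTTT, overlapping matches counted) numbered 1.69 per kb in Peg13, 2.02 in Pantr1 and 3.97 to 8.12 in the rest, beside a median of 1.73 per kb.

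The Pumilio-type motif TGTANATA, searched on the sense strand of the exons, occurred 13 times in all, in each member except Peg13. It was present in 17.6% of the other lncRNAs and in 44.5% of the 247 with exons in the same range of length. The sites of the 2 members with the largest opposite changes are shown, with the motif in capitals, 10 bases before and 10 after it, read from GRCm38 on the minus strand.
Pantr1, chr1:42693755-42693782: tatgcgtataTGTATATAtaaaagatgg
Dlx6os1, chr6:6823660-6823687: gtggctatcgTGTATATAtatagccaca
Dlx6os1, chr6:6821238-6821265: tatgtctcctTGTATATAattgcaagtt

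Other motifs occurred in some members and not in others, and were also common among lncRNAs of similar length. The element ACTAAC occurred in 4 members, with 2 matches in Pantr1 and 1 each in Rmst, Sox2ot and Snhg11, and in 57.5% of lncRNAs in that range of length. The repeat TGTGTGTG occurred in 3 members, with 5 overlapping matches in Pantr1, 3 in Peg13 and 1 in Sox2ot, and in 53.4% of lncRNAs in that range. A match of this kind describes the letters only.

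**Figure D5:**
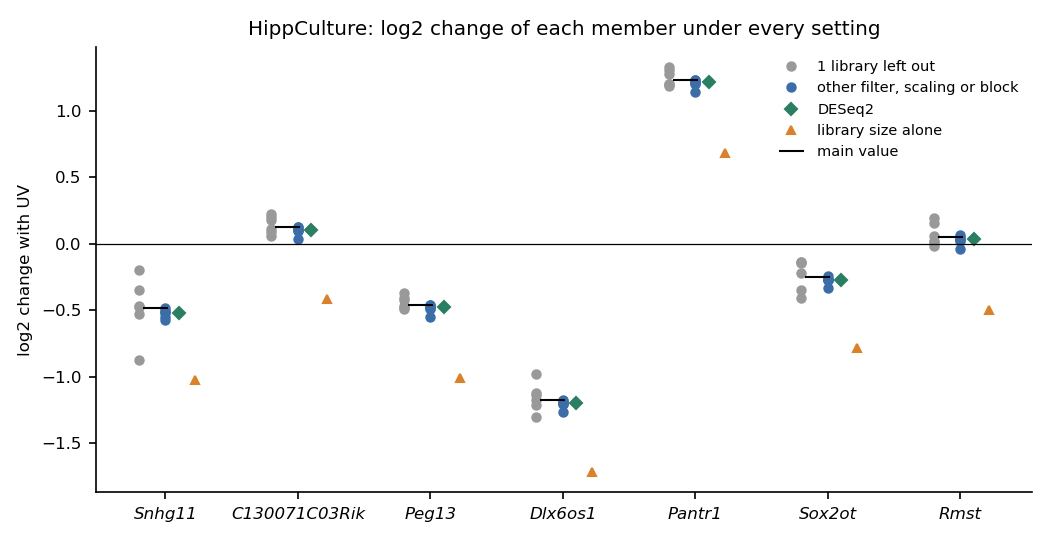
Log2 change of each member in HippCulture under every alternative, with the value reported as a black bar, each omission of 1 library in grey, other filters, scalings and the block in blue, DESeq2 in green and library size alone in orange. Pantr1, Dlx6os1 and Peg13 keep their sign throughout, Snhg11 ranges from -0.20 to -0.88 when 1 library is omitted, and library size alone lowers all 7 members together.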

How the data were processed

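The authors depleted ribosomal RNA, made TruSeq libraries (the labels name a stranded kit, the methods a version without strand) and mapped reads to mm10 with TopHat2 2.1.1. The deposited values are raw counts per gene from featureCounts 1.6.1 on GENCODE M17 exons, with reads overlapping several genes counted for each and no strand option in the file headers. The 12 human samples were not used here.

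From these counts each comparison was fitted with edgeR 4.0.16 (R 4.3.3; limma 3.58.1), by its quasi-likelihood test with TMM and Benjamini-Hochberg adjustment over every gene that averaged 0.5 CPM or more in nonirradiated samples (for the interaction, in those of each cell type). Calls had an adjusted p under 0.05. SE belongs to the log2 change, and SD to samples. The exact two-sided permutation test used log2(CPM + 0.5). Levels use TMM over the 12 mouse samples. Gene classes came from GENCODE, matched for 99.82% of genes. DESeq2 1.42.0, other scalings and filters, a replicate block and omission of each sample were alternatives. All replicate pairs differed by more than sampling noise (chi-square per degree of freedom 2.88 to 21.8). Code was tested on simulated data. Python 3.11.15, numpy 2.4.6, pandas 2.3.3 and matplotlib 3.10.9 were used.

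The members and lists were chosen with earlier results of these data known. Named genes are the members, the coding genes listed near them, genes inside their spans at 0.5 CPM or more or of microRNA or snoRNA class, the other neural lncRNAs listed, and the 3 genes most correlated with a member tested in both cell types.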

Additional observations from a re-analysis of the deposited data

How the results depend on the processing

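Pantr1, Dlx6os1 and Peg13 kept their direction and their call in HippCulture under all 14 alternatives, and so did Peg13 in Neuro2a. Library size alone reversed Rmst to -0.50 (adjusted p = 0.0464) and C130071C03Rik to -0.42 (adjusted p = 0.0168) in HippCulture. Rmst also turned negative with at least 10 counts in every sample (-0.037) and without HippCulture UVp replicate 2, its range over the omissions of 1 library being -0.018 to 0.193. Sox2ot was called with library size alone (-0.78, adjusted p = 0.000349). Under that scaling the counts of genes called lower and higher were 12852 and 1058 in Neuro2a, 9149 and 1320 in HippCulture, and 7519 and 64 for the interaction, whose higher calls numbered 766 with no filter on low counts. The shifts under library size alone follow from leaving out the composition factor, and the other causes were not tested.

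The labels do not say whether replicate numbers pair the samples, and the main fits did not pair them. Deviations of same-numbered samples correlated at 0.083 to 0.228 in Neuro2a and 0.048 to 0.126 in HippCulture. Those of different numbers reached at most 0.073 and 0.03. Every sample correlated best with its own number, a hint of pairing from the data and not from the design. With the replicate block, calls numbered 6036 lower and 5352 higher in Neuro2a and 4976 and 5043 in HippCulture. The block gave the Peg13 interaction as -0.48 (adjusted p = 0.0269), whose adjusted p ran from 0.000104 to 0.188 over all its alternatives, and it changed no other call of a member. Levels near 3 counts limit all 6 members under the filter in Neuro2a.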
